A study of Mus musculus with 6 samples.

Results

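Messenger RNA of 30 genes of cholesterol synthesis, uptake control and efflux was compared between DC2.4 cells labelled as overexpressing Vdbp and DC2.4 cells carrying the empty vector. The genes were taken by symbol from the count table, where each of the 30 had 1 row among 54532 genes, and all 30 were among the 12844 genes tested. They fall into 7 enzymes of the mevalonate steps, 11 of the sterol branch, 5 genes of SREBP control, 2 of sterol transport and storage, and 5 of LXR signalling and efflux. DC2.4 is an immortalised mouse dendritic cell line, and Vdbp is the vitamin D-binding protein, whose mouse gene is Gc. The Vdbp group was 3 libraries of cells given a Vdbp vector and the empty-vector group 3 libraries of cells given the vector alone. Per the labels both groups carried the ptt5 vector, were passaged 48 h after transfection and were then put under selection, with no other treatment named. The labels name neither a clone nor separate transfections, so the p-values measure the spread between these samples, which may be technical.

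Cells make cholesterol from acetyl-CoA through mevalonate, isoprenoid units and squalene, and squalene is then closed into lanosterol and trimmed to cholesterol. When sterol in the endoplasmic reticulum is scarce, SCAP escorts the transcription factors SREBP1 and SREBP2 to the Golgi, where they are cleaved and released to the nucleus to switch on the synthesis enzymes. INSIG proteins hold SCAP back when sterol is plentiful. Oxysterols, which mark a surplus, activate the LXR receptors, which switch on cholesterol export and a brake on lipoprotein uptake. In dendritic cells and macrophages this balance matters because these cells take up membrane and lipoprotein cholesterol and either store it as ester or export it.

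The promoters of 5 of the genes are shown because they stand for both arms of this circuit, 4 of the SREBP side and 1 of the LXR side. The sequences are the 250 bases before the transcription start in RefSeq, build GRCm38.p6, written 5′ to 3′ on the strand of the gene. Capitals mark the core of the sterol response element bound by SREBP (TCACCCCA, part of TCACCCCAC) and the CCAAT box bound by NF-Y, on either strand (ATTGG on the opposite one).
Hmgcs1, chr13:119690101-119690350, plus strand: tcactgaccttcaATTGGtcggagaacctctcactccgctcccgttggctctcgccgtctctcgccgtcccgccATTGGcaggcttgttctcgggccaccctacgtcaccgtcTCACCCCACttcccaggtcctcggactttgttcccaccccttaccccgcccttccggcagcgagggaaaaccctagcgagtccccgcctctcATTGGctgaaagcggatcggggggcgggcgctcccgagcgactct
Mvd, chr8:122443423-122443672, minus strand: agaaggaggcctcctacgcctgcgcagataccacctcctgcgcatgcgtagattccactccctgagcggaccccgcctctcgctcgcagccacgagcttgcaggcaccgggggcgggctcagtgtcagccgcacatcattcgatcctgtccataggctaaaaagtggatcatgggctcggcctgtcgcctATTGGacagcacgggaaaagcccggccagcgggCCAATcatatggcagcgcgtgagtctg
Lss, chr10:76531355-76531604, plus strand: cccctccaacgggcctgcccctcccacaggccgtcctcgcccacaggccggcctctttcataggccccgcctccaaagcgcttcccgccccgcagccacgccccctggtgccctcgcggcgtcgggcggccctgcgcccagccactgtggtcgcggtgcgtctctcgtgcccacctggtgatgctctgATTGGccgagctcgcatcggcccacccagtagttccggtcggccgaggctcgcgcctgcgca
Insig1, chr5:28071162-28071411, plus strand: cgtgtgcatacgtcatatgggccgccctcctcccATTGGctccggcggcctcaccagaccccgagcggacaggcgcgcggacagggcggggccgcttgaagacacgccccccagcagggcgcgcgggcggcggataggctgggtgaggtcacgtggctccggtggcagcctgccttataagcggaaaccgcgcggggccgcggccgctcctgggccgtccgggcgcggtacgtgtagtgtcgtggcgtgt
Abca1, chr4:53159896-53160145, minus strand: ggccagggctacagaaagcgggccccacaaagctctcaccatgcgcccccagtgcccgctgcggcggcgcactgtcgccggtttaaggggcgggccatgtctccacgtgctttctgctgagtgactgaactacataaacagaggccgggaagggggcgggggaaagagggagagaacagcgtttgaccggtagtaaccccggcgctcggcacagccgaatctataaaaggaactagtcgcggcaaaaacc

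Promoters were found in the RefSeq table for 25 of the 30 genes, over 300 bases from 250 before to 50 after the start. A gene could have several such windows (34 for the 25 genes, 32851 for all 27025) and counted once if any matched. The longer core, TCACCCCAC or TCACGCCAC, was found in 1 of the 25 (4%, Hmgcs1), against 0.755% of the 27025 genes with a promoter in the table and 0.914% of the 9301 of these that were tested. The shorter core, TCACCCCA or TCACGCCA, was searched after the first count was seen. It was in 2 of 25 genes (Hmgcs1 and Srebf2), against 2.21% of all genes with a promoter. CCAAT was in 20 of 25 genes (80%), against 41.1% of all genes with a promoter and 43.3% of those tested. GGGCGG, the Sp1 box, was in 22 of 25 genes (88%), against 38.2% of all genes with a promoter and 68.3% of those tested. The LXR element DR4 was searched only as an exact direct repeat of AGGTCA or GGGTCA with 4 bases between. This exact form was in 0 of 25 genes and in 0.0481% of all genes with a promoter. Both strands were searched for each motif, the shorter core lies within the longer one, and a match or its absence describes the letters of these windows alone. Only these exact letters were searched, so a promoter without a match may still hold a variant of the sterol response or LXR element.

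The libraries held 15563800 to 16710975 counts, and the 30 genes took 0.265% to 0.276% of them. Gc had 0 counts in all 3 libraries labelled Vdbp and 0 in all 3 empty-vector libraries. A count of 0 allows up to 0.177 to 0.192 CPM (counts scaled to a common library size; the limit is 3 counts and covers counting error only). The overexpression was not visible in the counts, and each library is called by its label throughout. Markers of the leukocyte and dendritic lineage were present (Itgax at 45.9 to 56.4 CPM in the Vdbp libraries and 48.3 to 51.9 CPM in the empty-vector libraries). Of 13 dendritic markers, 6 were under 1 CPM in every library (Flt3, Batf3, Ciita and the class II chains H2-Aa, H2-Ab1 and H2-Eb1). The 13 summed to 452 to 489 CPM in the Vdbp libraries and 420 to 451 CPM in the empty-vector libraries. The summed macrophage markers lay at 4330 to 4680 CPM in the Vdbp libraries and 4580 to 5210 CPM in the empty-vector libraries, with Lyz2 at 1520 to 1630 and 1730 to 2100 CPM. T cell, B cell and epithelial markers summed to at most 0.355 CPM in any library (Cd3e and Krt8 at 0), and fibroblast markers to 1.12 to 2.17 CPM in the Vdbp libraries and 1.54 to 2.25 CPM in the empty-vector libraries. In bulk RNA, fewer cells of a kind and less RNA per cell cannot be told apart. Libraries also differed by a trend with GC content across genes, strongest in Vdbp replicate 1 (Spearman's rho 0.75) and empty-vector replicate 2 (−0.64). The mitochondrial share was 1.49% to 2.18% in the Vdbp libraries and 1.82% to 2.61% in the empty-vector libraries. The part of these differences in the results was not tested, except for the GC trend, for which corrected values are given beside the uncorrected ones.

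The whole route from acetyl-CoA to cholesterol was expressed. Per gene length, in the deposited FPKM (counts scaled to gene length and library size), Soat1, which esterifies cholesterol for storage, had the highest level at 50.3 ± 4.71 FPKM (SD over all 6 libraries). Srebf2, which encodes the SREBP most active on sterol genes, followed at 44.1 ± 6.02 FPKM. The enzymes Mvd (37.0 ± 7.88), Sqle (34.9 ± 1.55) and Cyp51 (30.9 ± 2.53 FPKM) came next. Insig1 (27.2 ± 2.46), Acat2 (25.0 ± 2.76), Srebf1 (24.6 ± 3.93), Pmvk (24.2 ± 6.06) and Hmgcs1 (21.1 ± 2.12 FPKM) followed these. The remaining genes were between 19.2 FPKM (Msmo1) and 4.80 FPKM (Lss), apart from 3 low ones. These were Mylip (2.69 ± 0.18), Fdps (1.13 ± 0.13) and Tm7sf2 (0.983 ± 0.187 FPKM). Neighbours in this order differed by less than the sum of their SDs, except between Nr1h3 and Lss, Lss and Mylip, and Mylip and Fdps. The low FPKM of Lss goes with its gene length in the table, 10787 bases.

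**Figure D1:**
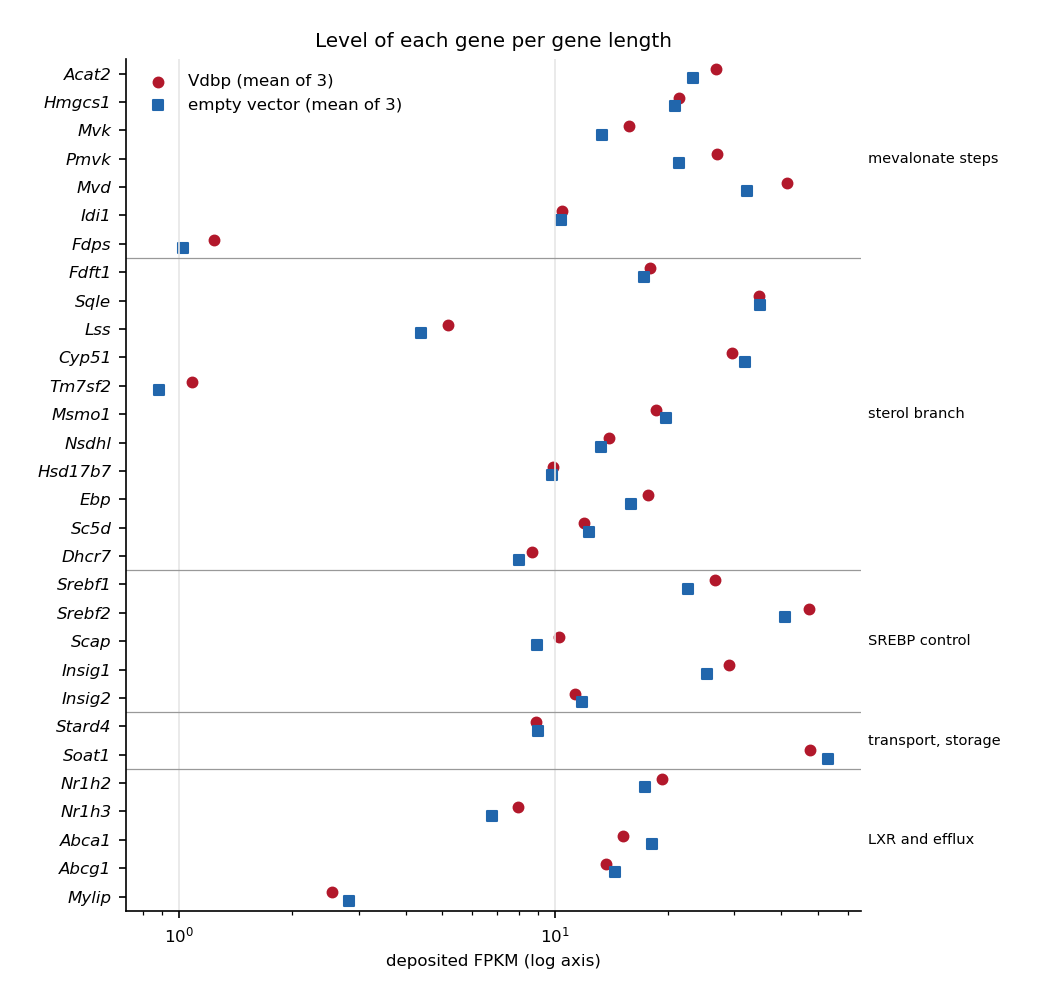
Mean deposited FPKM of each of the 30 genes on a log axis, with circles for the Vdbp libraries and squares for the empty-vector libraries (mean of 3 each), grouped by role. The circle and the square of a gene lie close together throughout, and Fdps, Tm7sf2 and Mylip are the lowest.

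No gene of the set differed between the groups past the threshold. edgeR's quasi-likelihood test called 0 of the 30 higher and 0 lower at a Benjamini-Hochberg adjusted p under 0.05, where it called 0% of all tested genes in each direction. The adjusted p of the 30 lay between 0.781 and 0.998. DESeq2 also called 0 of the 30, against 0.0156% of all genes higher and 0.0701% lower. At an unadjusted p under 0.05, 1 of the 30 was higher (Mvd, background 2.81%) and 1 lower (Abca1, background 2.54%). The 3 Vdbp libraries lay above all empty-vector libraries in 3 genes (background 5.26%) and below all of them in 2 (background 5.61%).

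The intervals bound the size of the differences gene by gene, only as far as the spread between these samples goes, which may be technical. For all 30 genes the 95% interval excluded a change of 2-fold or more in either direction, and for 26 it excluded 1.5-fold. The log2 fold change, Vdbp over empty vector, had a median of 0.09 over the 30 genes and −0.01 over all tested genes. It was above 0 in 20 of 30 genes, against 48.7% of all tested genes. Leaving out empty-vector replicate 3 gave a median of 0.06 with 15 of 30 above 0, and leaving out both Vdbp replicate 1 and empty-vector replicate 2 gave 0.04. A correction removed from each library the smooth dependence of its counts on GC content and gene length. The median was then 0.09 as well, and 23 of 30 were above 0, against 50.2% of all genes. The corrected fit called 0 of 30 in either direction (background 0% higher and 0.0156% lower). It had 5 of 30 higher and 2 lower at an unadjusted p under 0.05, against 4.70% and 4.53% of all genes. The list was chosen with earlier results of these libraries known, so these shares are a description.

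**Figure D2:**
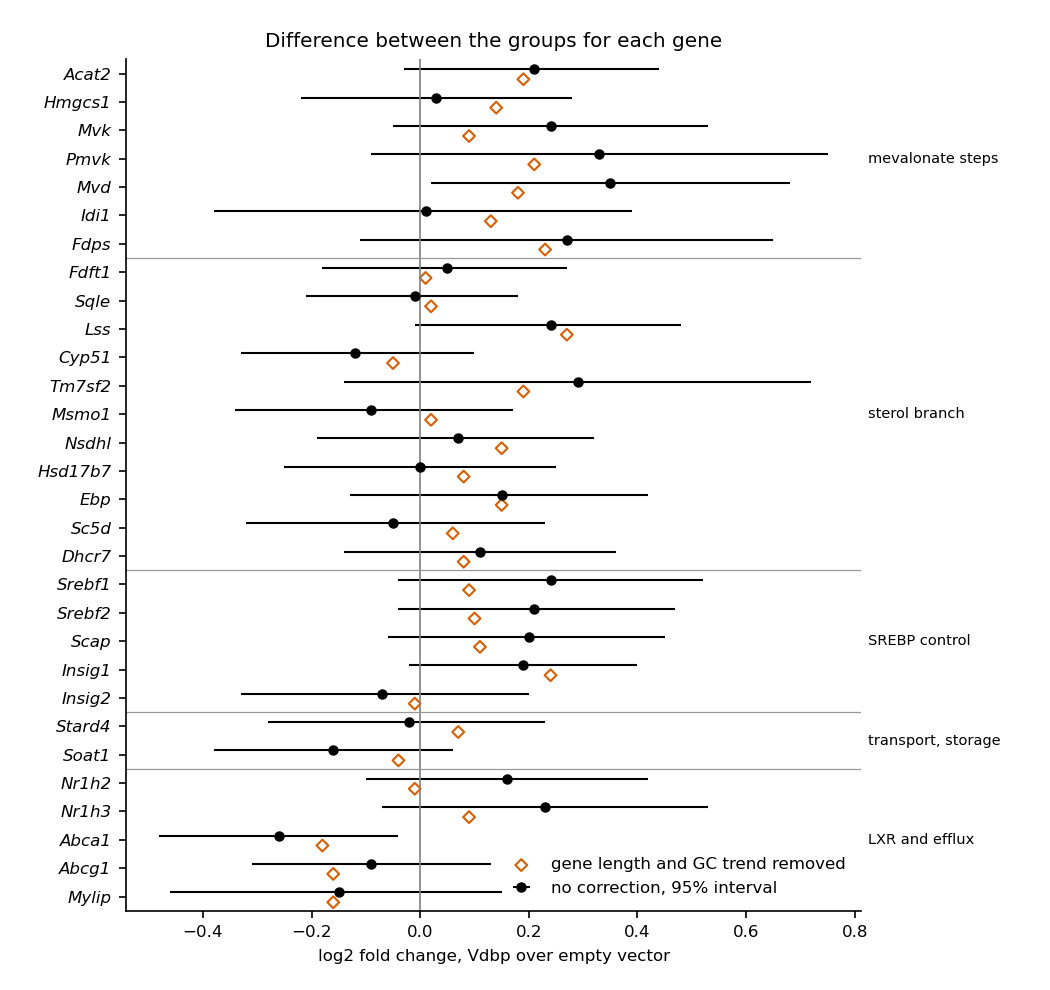
Log2 fold change of each gene, Vdbp over empty vector, as filled circles with the 95% interval from edgeR, and open diamonds for the same value after the gene length and GC trend was removed. Most intervals span 0, those of Mvd and Abca1 do not, and the diamonds of the synthesis enzymes lie closer to each other than the circles do.

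All 7 enzymes of the mevalonate steps had log2 fold changes above 0 in both fits, with a median of 0.24, and 0.18 after the correction, but none passed the test. Without empty-vector replicate 3, 5 of 7 were above 0 in the uncorrected fit. Mvd (ENSMUSG00000006517, chromosome 8, 122433601 to 122443422, minus strand) makes isopentenyl diphosphate, the building unit of sterols. It had 95.2, 69.9 and 67.4 CPM in Vdbp replicates 1, 2 and 3, against 62.8, 49.99 and 69.4 CPM in empty-vector replicates 1, 2 and 3. Vdbp replicate 1 stood highest and empty-vector replicate 2 lowest, and the other 4 libraries lay together, so the groups overlapped. The log2 fold change was 0.35 (SE 0.15, 95% interval 0.02 to 0.68, adjusted p 0.781), and 0.18 (SE 0.07) after the correction. Leaving out 1 library at a time gave uncorrected values of 0.18 to 0.46.

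Hmgcs1, which condenses the precursor of mevalonate and carries the sterol response core shown above, had 85.6, 103.9 and 105.5 CPM in the Vdbp libraries, against 93.4, 108.7 and 87.5 CPM in the empty-vector libraries. Here Vdbp replicate 1 was the lowest of all 6 libraries and empty-vector replicate 2 the highest, the reverse of Mvd. The log2 fold change was 0.03 (SE 0.11), and 0.14 after the correction (adjusted p 0.506). Idi1, which converts isopentenyl diphosphate to its reactive isomer, also had its lowest value in Vdbp replicate 1, with 26.9, 39.6 and 43.8 CPM in the Vdbp libraries and 32.4, 43.5 and 33.7 CPM in the empty-vector libraries. Its log2 fold change was 0.01, and 0.13 after the correction.

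The kinases Mvk and Pmvk, which phosphorylate mevalonate in turn, had their highest value in Vdbp replicate 1 and their lowest in empty-vector replicate 2, as Mvd did. Pmvk had 58.6, 44.2 and 36.2 CPM in the Vdbp libraries and 34.1, 29.8 and 46.6 CPM in the empty-vector libraries, a log2 fold change of 0.33 (SE 0.19), and 0.21 after the correction. Its uncorrected value ranged between 0.13 and 0.54 with 1 library left out, and was −0.0089 without Vdbp replicate 1 and empty-vector replicate 2. Mvk averaged 42.4 ± 5.01 CPM in the Vdbp libraries and 35.9 ± 4.74 CPM in the empty-vector libraries (SD, n = 3 each). Its log2 fold change was 0.24, and 0.09 after the correction. Acat2, the thiolase that opens the pathway, had 66.7, 64.8 and 74.2 CPM in the Vdbp libraries and 66.2, 56.9 and 55.3 CPM in the empty-vector libraries, with a log2 fold change of 0.21, and 0.19 after the correction. Its groups overlapped by 1 library, and its level is uncertain because 35.6% of the 75-base windows of its protein-coding transcripts also occur in Acat3 or Tcp1.

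Fdps, which joins the isoprenoid units into farnesyl diphosphate, had few counts and more of them on a copy. It had 86, 83 and 84 counts in the Vdbp libraries, against 65, 72 and 79 counts in the empty-vector libraries, and the groups did not overlap. The processed pseudogene Gm3571 had 562, 568 and 423 counts in the Vdbp libraries and 421, 333 and 528 in the empty-vector libraries, several times those of the gene itself. Another processed pseudogene, Gm5873, had 91, 100 and 107 counts in the Vdbp libraries and 108, 113 and 99 in the empty-vector libraries. Of the 75-base windows of protein-coding Fdps transcripts, 18.6% occur unchanged in Gm3571, 6.79% in Gm5873 and 54.5% in Gm43738, a gene annotated over the same locus that had 1 count in all. How reads shared by several genes were assigned is not given in the sources used here, so the level of Fdps is uncertain. With the counts of Gm3571 and Gm5873 added to the gene, a sum chosen after the data were seen, the log2 fold change was 0.25 (SE 0.13), against 0.27 (SE 0.17) for Fdps alone, and the groups overlapped (739, 751 and 614 counts in the Vdbp libraries, 594, 518 and 706 in the empty-vector libraries).

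The 11 enzymes of the sterol branch had a median log2 fold change of 0.05, and 0.08 after the correction, with 7 and then 10 of 11 above 0. The uncorrected median was −0.02 without empty-vector replicate 3. None passed the test (adjusted p 0.781 to 0.998). Sqle (ENSMUSG00000022351, chromosome 15, 59315077 to 59331192, plus strand), the rate-limiting epoxidase of squalene, had 181, 198 and 203 CPM in the Vdbp libraries, against 200.3, 198 and 188 CPM in the empty-vector libraries. The 2 ranges overlapped, and the log2 fold change of −0.01 had a 95% interval of −0.21 to 0.18. Cyp51, the demethylase of lanosterol, had 115, 142 and 136.5 CPM in the Vdbp libraries and 143, 147 and 138 CPM in the empty-vector libraries, and overlapped likewise (log2 fold change −0.12, interval −0.33 to 0.10).

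Lss, the cyclase that forms lanosterol, was the one enzyme of this branch whose groups did not overlap. Lss (ENSMUSG00000033105, chromosome 10, 76531588 to 76557138, plus strand) had 64.1, 51.7 and 53.2 CPM in the Vdbp libraries, against 48.6, 47.9 and 46.9 CPM in the empty-vector libraries. The 3 empty-vector libraries lay within 2 CPM of each other, and Vdbp replicate 1 stood above the other 2 Vdbp libraries. The log2 fold change was 0.24 (SE 0.11, 95% interval −0.01 to 0.48, adjusted p 0.781), and 0.27 (adjusted p 0.444) after the correction. Without Vdbp replicate 1 it was 0.14.

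Tm7sf2, a sterol reductase at a low level, had 7.35, 6.10 and 4.79 CPM in the Vdbp libraries and 4.43, 5.07 and 5.44 CPM in the empty-vector libraries (log2 fold change 0.29, SE 0.20). The groups overlapped, and 17.4% of its protein-coding windows also occur in Vps51, which shares exons with it. Fdft1, the squalene synthase, averaged 75.8 ± 5.17 CPM in the Vdbp libraries and 73.4 ± 5.68 CPM in the empty-vector libraries. Its exons share 18.3% of their bases with exons of Ctsb on the opposite strand, so without strand the reads of that shared stretch cannot be told from those of Ctsb. The late enzymes Msmo1, Nsdhl, Hsd17b7, Ebp, Sc5d and Dhcr7 serve to remove methyl groups and to introduce, move or reduce double bonds. They had log2 fold changes between −0.09 (Msmo1) and 0.15 (Ebp). Their groups overlapped in each case, as for Nsdhl at 39.9 ± 1.40 CPM in the Vdbp libraries and 38.1 ± 4.34 CPM in the empty-vector libraries (SD, n = 3 each).

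**Figure D3:**
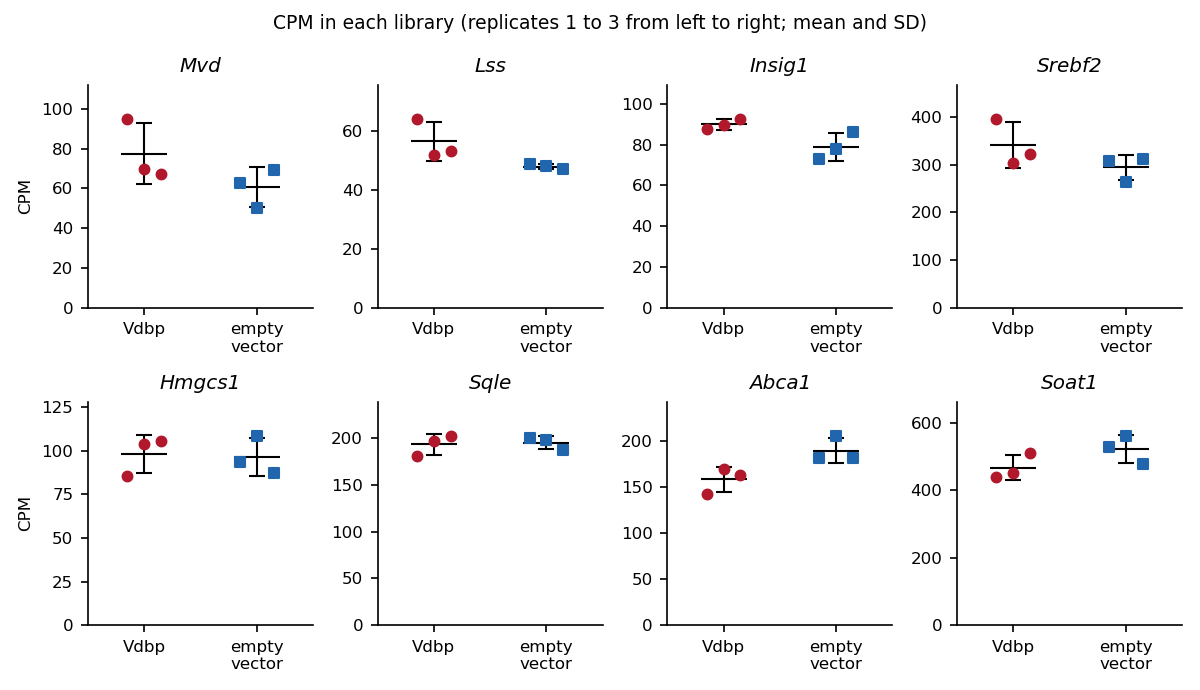
CPM of 8 genes in each library, with replicates 1 to 3 from left to right, the Vdbp libraries as circles and the empty-vector libraries as squares, and the mean and SD of 3. Vdbp replicate 1 is high for Mvd, Lss and Srebf2 and low for Hmgcs1, Sqle and Abca1, and the groups do not overlap for Lss, Insig1 and Abca1.

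Of the 5 genes of SREBP control, 4 had log2 fold changes above 0 (median 0.20, and 0.10 after the correction), and none passed the test. The uncorrected median was 0.09 without Vdbp replicate 1, and 0.02 without both Vdbp replicate 1 and empty-vector replicate 2. Srebf2 (ENSMUSG00000022463, chromosome 15, 82147181 to 82205379, plus strand) had 397, 305 and 323 CPM in the Vdbp libraries, against 309, 264 and 312 CPM in the empty-vector libraries. Vdbp replicate 1 stood apart above, while Vdbp replicate 2 lay below 2 of the empty-vector libraries. Its log2 fold change was 0.21 (SE 0.12), and 0.10 after the correction. Srebf1, which acts more on fatty acid genes and is itself an LXR target, had 179, 132 and 140.5 CPM in the Vdbp libraries and 125, 114 and 144 CPM in the empty-vector libraries. It showed the same order of libraries at the top and bottom, with a log2 fold change of 0.24 (SE 0.13), and 0.09 after the correction. Scap, the escort of both factors, had 90.4, 69.1 and 70.3 CPM in the Vdbp libraries and 68.5, 62.7 and 69.6 CPM in the empty-vector libraries, a log2 fold change of 0.20, and 0.11 after the correction.

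Insig1 and Insig2, which both anchor SCAP, differed in layout. Insig1, a target of SREBP itself (ENSMUSG00000045294, chromosome 5, 28071363 to 28078662, plus strand), had 87.6, 89.5 and 92.8 CPM in the Vdbp libraries, against 72.8, 77.8 and 86.2 CPM in the empty-vector libraries. All Vdbp libraries lay above all empty-vector libraries, and the nearest pair differed by less than 2 CPM. The log2 fold change was 0.19 (SE 0.10, 95% interval −0.02 to 0.40, adjusted p 0.781), and 0.24 (adjusted p 0.438) after the correction. Insig2 had 35.8, 40.9 and 41.5 CPM in the Vdbp libraries and 35.7, 44.2 and 44.0 CPM in the empty-vector libraries, which overlapped (log2 fold change −0.07, SE 0.12).

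Ratios within a library do not depend on library scaling, and 4 pairs of related genes were compared this way. Such ratios are not corrected for the GC trend, which can enter where the paired genes differ in GC content. The FPKM ratio of Insig1 to Insig2 was 2.75, 2.46 and 2.51 in the Vdbp libraries, against 2.29, 1.98 and 2.20 in the empty-vector libraries. The groups did not overlap, with means of 2.57 ± 0.155 and 2.16 ± 0.164 (SD, n = 3 each; two-sided exact permutation p 0.1, the smallest that 3 against 3 allows, and 0.4 adjusted over the 4 ratios). The ratio of Srebf1 to Srebf2 was 0.561 ± 0.0123 in the Vdbp libraries and 0.552 ± 0.035 in the empty-vector libraries, that of Nr1h3 to Nr1h2 was 0.411 ± 0.0172 and 0.394 ± 0.0152, and that of Abcg1 to Abca1 was 0.907 ± 0.156 and 0.799 ± 0.0508. These 3 ratios overlapped between the groups (exact permutation p 0.7, 0.4 and 0.6, each 0.7 adjusted over the 4). Abcg1 and Abca1 lay at 53.6% and 47.7% GC, and their ratio was 1.09, 0.809 and 0.825 in Vdbp replicates 1, 2 and 3. The part of the GC trend in it was not tested.

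**Figure D4:**
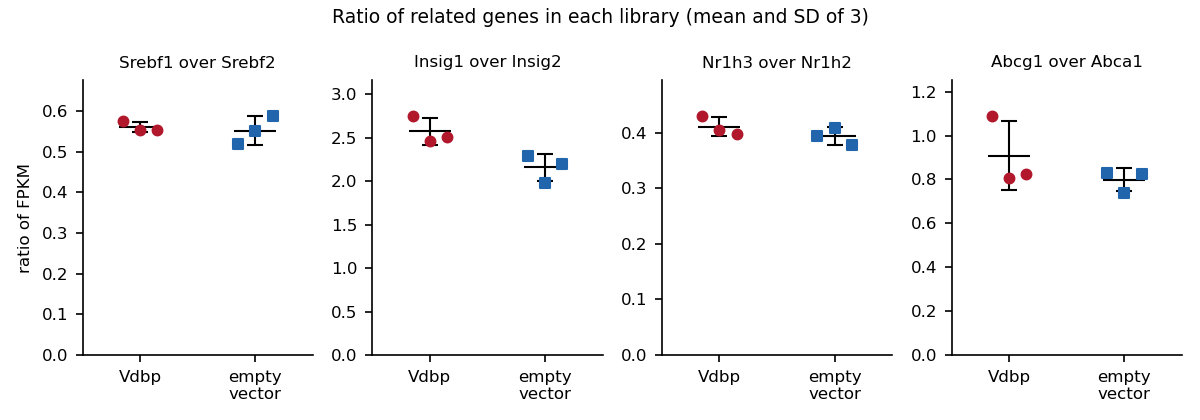
FPKM ratio of 4 pairs of related genes in each library, Vdbp as circles and empty vector as squares, replicates 1 to 3 from left to right, with the mean and SD of 3. The groups do not overlap for Insig1 over Insig2 and do overlap for the other 3 ratios.

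The transporters Abca1 and Abcg1 and the uptake brake Mylip had log2 fold changes below 0 in both fits, and none passed the test. Abca1 (ENSMUSG00000015243, chromosome 4, 53030787 to 53159895, minus strand), which loads cholesterol onto lipid-poor apolipoproteins, had 142, 169 and 163 CPM in the Vdbp libraries, against 181, 205 and 182 CPM in the empty-vector libraries. Every Vdbp library was below every empty-vector library. The log2 fold change was −0.26 (SE 0.10, 95% interval −0.48 to −0.04, adjusted p 0.781), and −0.18 (adjusted p 0.464) after the correction. Its value ranged from −0.31 to −0.19 when 1 library at a time was left out. Mylip, the ubiquitin ligase by which LXR limits lipoprotein uptake, had 7.78, 8.43 and 8.62 CPM in the Vdbp libraries and 9.22, 9.18 and 9.23 CPM in the empty-vector libraries. These groups did not overlap either, on 125 to 156 counts per library (log2 fold change −0.15, SE 0.14, adjusted p 0.790). Abcg1, which exports cholesterol to mature lipoprotein particles, averaged 55.7 ± 4.33 CPM in the Vdbp libraries and 59.2 ± 0.419 CPM in the empty-vector libraries and overlapped (−0.09, and −0.16 after the correction).

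The LXR receptors are encoded by 2 genes, and neither passed the test. Nr1h2, which encodes LXR beta, had 71.4, 65.6 and 58.1 CPM in the Vdbp libraries and 60.6, 50.7 and 63.8 CPM in the empty-vector libraries, with a log2 fold change of 0.16 (SE 0.12) that became −0.01 after the correction. Nr1h3, which encodes LXR alpha, had 23.0, 19.9 and 17.3 CPM in the Vdbp libraries and 17.9, 15.5 and 18.1 CPM in the empty-vector libraries, with 0.23 (SE 0.14) and 0.09. Both overlapped between the groups. The median of the 5 genes was −0.09, and −0.16 after the correction.

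Storage and transport had 2 members. Soat1 (ENSMUSG00000026600, chromosome 1, 156424525 to 156474331, minus strand) had 441.5, 451 and 511 CPM in the Vdbp libraries, against 529, 562.5 and 478 CPM in the empty-vector libraries. Empty-vector replicate 3 lay inside the Vdbp range, and the log2 fold change of −0.16 (SE 0.10, adjusted p 0.781) became −0.04 after the correction. Stard4, a carrier of cholesterol between membranes, had 42.3, 53.7 and 53.4 CPM in the Vdbp libraries and 50.3, 53.0 and 48.4 CPM in the empty-vector libraries, a log2 fold change of −0.02 (SE 0.12) with full overlap.

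The layout of the libraries in these genes went with GC content to different degrees, least in Vdbp replicate 2. The log2 fold change of the 30 genes had a Spearman's rho with GC content of 0.69, and 0.18 after the correction. Over all tested genes that rho was 0.53, and 0.03 after the correction. Across the 30 genes the deviation of a library from the mean of all 6 had a Spearman's rho with GC content of 0.86 in Vdbp replicate 1, −0.10 in Vdbp replicate 2 and −0.63 in Vdbp replicate 3. It was −0.34, −0.87 and 0.49 in empty-vector replicates 1, 2 and 3. These are descriptions over 30 genes that share each library. All 13 genes with a GC content over 52% were above the mean in Vdbp replicate 1 (mean deviation 0.30 on the log2 scale), and 11 of them were below it in empty-vector replicate 2 (−0.21). Of the 12 genes under 48%, 10 were below the mean in Vdbp replicate 1 (−0.19), and 10 were above it in empty-vector replicate 2 (0.13). The pair that showed the widest gap, Pmvk and Idi1, lay at 55.5% and 41.1% GC. With the trend of all tested genes removed, the mean deviation of the 18 synthesis enzymes was 0.09, 0.04 and 0.05 in Vdbp replicates 1, 2 and 3, and −0.04, −0.07 and −0.07 in empty-vector replicates 1, 2 and 3. The groups did not overlap in that mean, and 17 of 18 enzymes then had a log2 fold change above 0 (background 50.2%), with a median of 0.13. Before the correction that mean deviation was 0.08, 0.04 and 0.05 in Vdbp replicates 1, 2 and 3. In empty-vector replicates 1, 2 and 3 it was −0.04, −0.06 and −0.07, so the groups did not overlap there either. How often other gene lists separate in such a mean was not tested. In the uncorrected fit 14 of 18 enzymes had a log2 fold change above 0 (background 48.7%), with a median of 0.09. Without empty-vector replicate 3 the uncorrected fit had 9 of 18 above 0, with a median of 0.06.

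**Figure D5:**
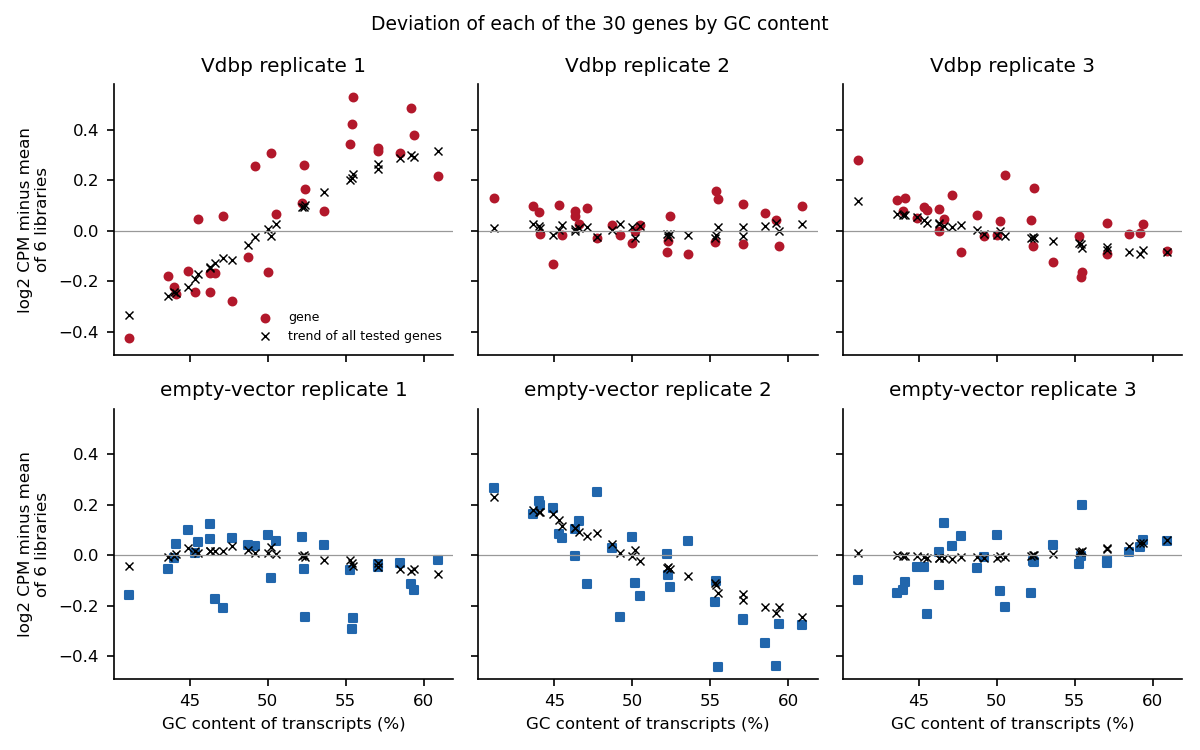
Deviation of each of the 30 genes in each library from its mean over 6 libraries, in log2 CPM, against the GC content of its transcripts, with crosses for the trend of all tested genes at the GC content and length of the same gene. The genes climb with GC content in Vdbp replicate 1 and descend in empty-vector replicate 2, and the crosses run the same way.

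Of 51 further genes around the pathway, 44 were tested and 0 passed (smallest adjusted p 0.781), with a median log2 fold change of 0.06. The 4 further synthesis genes among them had a median of 0.06, and 0.12 after the correction. At an unadjusted p under 0.05, 1 of the 44 was higher (background 2.81%) and 1 lower (background 2.54%). The lower one was Cd36, a receptor for oxidised lipoproteins and fatty acids, with 48.7, 63.4 and 72.0 CPM in the Vdbp libraries and 79.7, 95.04 and 68.1 CPM in the empty-vector libraries. Its groups overlapped, with a log2 fold change of −0.40 (SE 0.15), and −0.27 after the correction. Of 10 uptake and lysosomal genes 8 were tested (median 0.08, and 0.02 after the correction). The most abundant was the endocytic receptor Lrp1, at 1885 ± 380 CPM in the Vdbp libraries and 1757 ± 146 CPM in the empty-vector libraries.

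All 8 genes for SREBP processing and turnover were tested (median 0.01). Rnf145, a sterol-responsive ligase among them, had groups that did not overlap, with 62.9, 62.0 and 58.3 CPM in the Vdbp libraries and 52.4, 55.5 and 57.6 CPM in the empty-vector libraries (log2 fold change 0.15, adjusted p 0.781). Of 12 fatty acid genes 11 were tested (median 0.03). The desaturase Scd2 averaged 1278 ± 29.9 and the fatty acid synthase Fasn 643 ± 108 CPM in the Vdbp libraries, against 1204 ± 42.6 and 557 ± 38.1 CPM in the empty-vector libraries, and the groups did not overlap for Scd2 (log2 fold change 0.09, adjusted p 0.797). Of 11 LXR partners and other efflux genes 7 were tested (median 0.17, and 0.07 after the correction), Rxrb, a partner of LXR, being at 139.7 ± 23.3 CPM in the Vdbp libraries and 124.5 ± 19.2 CPM in the empty-vector libraries. Of 6 genes for sterol transfer and storage, all tested (median 0.02, and −0.05 after the correction), Gramd1b averaged 145 ± 5.86 and Stard3 57.4 ± 12.1 CPM in the Vdbp libraries, against 149.9 ± 5.78 and 49.95 ± 4.12 CPM in the empty-vector libraries.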

How the data were processed

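RNA was sequenced as mRNA libraries per the labels, and 6 libraries were compared, 3 per group. The authors deposited unnormalised counts per Ensembl gene and an FPKM table of the same libraries. The submitters' processing notes list StringTie and HISAT2, without versions. Not given in the sources used here are the counting tool, the strand setting, the build and the annotation. Deposited FPKM were the counts divided by gene length and 1 constant per library, to within a relative gap of 5.1e-15. Of the gene identifiers 99.8% occur in GENCODE M21 (GRCm38), where 28 of the 30 genes have the same start and end, and GC content and shared windows of 75 bases were taken from its transcripts. Positions are those of the deposited table.

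The tests ran on the deposited counts with edgeR 4.0.16 (R 4.3.3), after filterByExpr (minimum count 10, total 15, proportion 0.7), TMM scaling and a quasi-likelihood test on group alone, adjusted by Benjamini-Hochberg over 12844 genes, threshold 0.05. CPM use TMM-adjusted library sizes. Floors of 3 counts cover counting error only. For the correction, mgcv 1.9.3 fitted each library's deviation on GC content and gene length, and the fit entered edgeR as an offset. Alternatives used DESeq2 1.42.0, limma 3.58.1 (voom, and log2 FPKM with pseudocounts 1 and 0.1), other scalings, filters and thresholds, a replicate block, and leaving out libraries. The fit was tested on simulated data.

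The genes and lists were chosen with earlier results of these data known. Values in every library are given, per role, for the 2 genes with the highest mean CPM, the 2 with the smallest p and those whose groups did not overlap. The other pathway genes named are the highest and the smallest p of each sub-list. Some of these are not reported here, and Pmvk, Idi1, Scap and Insig2 were given in full after their values were seen.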

Additional observations from a re-analysis of the deposited data

How the results depend on the processing

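None of the 30 genes passed in any other fit, which took other scalings, filters, thresholds and tools, log2 FPKM, the replicate block, the offset, and libraries left out. The count over all tested genes was 0 as reported, 89 without a filter on low counts, 11 with DESeq2, 4 with unfiltered log2 FPKM, 2 with the offset and 2 without both libraries at the ends of the GC trend. It ranged from 0 to 22 with 1 library left out, being 22 without empty-vector replicate 3 and 1 without empty-vector replicate 2. The median of the 30 genes ranged from 0.06 to 0.12 with 1 library left out and was 0.04 without both end libraries.

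Same-numbered libraries had deviations from their group means that correlated at 0.14, 0.03 and −0.27. With 3 libraries per group and a GC trend in them, these values cannot decide whether a number marks a shared culture or day. With the replicate block 0 genes passed, and 0 with the block and the offset together.

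Signs turned in some genes, Pmvk at 0.33 as reported among them, and the cause was not tested. Without both end libraries the log2 fold change was −0.0089 in Pmvk, 0.04 in Sqle, 0.08 in Msmo1, −0.04 in Ebp, 0.15 in Sc5d, −0.01 in Dhcr7, 0.05 in Insig2, 0.11 in Stard4 and −0.01 in Nr1h2. With limma-voom the log2 fold change was −0.0091 in Idi1 and −0.0004 in Hsd17b7. On log2(FPKM + 1) the log2 fold change was −0.0048 in Idi1. On log2(FPKM + 0.1) the log2 fold change was −0.007 in Idi1. On unfiltered log2(FPKM + 1) the log2 fold change was −0.0048 in Idi1. With the replicate block the log2 fold change was −0.0069 in Idi1 and −0.0006 in Hsd17b7. With the offset the log2 fold change was 0.02 in Sqle, 0.02 in Msmo1, 0.06 in Sc5d, 0.07 in Stard4 and −0.01 in Nr1h2. With the block and the offset the log2 fold change was 0.02 in Sqle, 0.03 in Msmo1, 0.06 in Sc5d, 0.07 in Stard4 and −0.02 in Nr1h2. With total counts the log2 fold change was −0.002 in Hsd17b7. With 1 library left out the range was −0.04 to 0.12 in Hmgcs1, −0.14 to 0.19 in Idi1, −0.01 to 0.10 in Fdft1, −0.04 to 0.04 in Sqle, −0.18 to 0.01 in Msmo1, −0.02 to 0.12 in Nsdhl, −0.06 to 0.08 in Hsd17b7, −0.12 to 0.06 in Sc5d and −0.08 to 0.09 in Stard4.

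The depth left the smallest genes, Fdps, Tm7sf2 and Mylip, with 65 to 156 counts per library.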
